A study of Homo sapiens with 6 samples.

Results

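The cytosolic protein-folding genes of the human myeloma line U266 were examined with and without added MYC. They were 42 genes taken by symbol from the 57820 gene rows of each library: heat shock factors, the cytosolic HSP70, HSP110, HSP90 and small heat shock proteins, their J-domain partners and co-chaperones, the chaperonin subunits and the prefoldin subunits. All 42 were found and all passed the expression filter of the test. RNA was sequenced from 3 libraries of U266 cells transduced with a lentiviral vector that drives MYC from the EF1A promoter (MYC cells) and 3 libraries of U266 control cells. Both groups share the cell line and the culture medium. The labels do not say whether the controls carried a vector, whether either group was a clone or a mixed population, or whether separate cultures gave the 3 libraries of each group. Spread between libraries may thus be technical, and p-values measure no more than that spread. An effect of transduction cannot be told apart from one of MYC.

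Cytosolic chaperones bind unfolded or partly folded proteins and use ATP to help them reach their native state. HSP70 and its J-domain partners act early on a new or damaged chain, HSP90 and its co-chaperones finish a more limited set of clients such as kinases and steroid receptors, and prefoldin hands actin and tubulin to the ring-shaped chaperonin called TRiC or CCT. Heat shock factor 1, encoded by HSF1, is the transcription factor that drives many of these genes when cells are stressed. Plasma cells and myeloma cells make large amounts of secreted immunoglobulin, and HSP90 and HSF1 have been studied as drug targets in myeloma.

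Summed expected counts, the estimated read counts of each library, ran from 27139978 to 158667309 in MYC libraries and from 55026416 to 130576913 in control libraries. The introduced gene checked the labels: MYC had 105, 110 and 92.1 CPM (counts scaled to library size) in MYC libraries, against 3.91, 4.16 and 4.51 CPM in control libraries. Of the plasma cell markers, all 8 were detected, and their summed level was 3428 to 3486 TPM (a like scale that also divides by transcript length) in MYC libraries, against 3701 to 4220 TPM in control libraries. Of these 8 genes 5 fell and 1 rose, against 32.1% and 28.8% of all genes tested. SDC1 fell with a log2 fold change of -1.17 and IRF4 with -0.71. With a correction for GC content described further on, 6 fell and 1 rose, against 28.7% and 29.7%. SDC1 then stood at -0.24 and IRF4 at -0.45. MZB1, not called without the correction, rose with 1.04. JCHAIN, the most abundant, rose with 0.19 but was not called with the correction. The 4 B cell markers summed to 0.520 to 0.95 TPM in MYC libraries, against 0.320 to 0.470 TPM in control libraries. The 5 T and NK cell markers summed to 11.2 to 13.3 TPM in MYC libraries, against 6.61 to 8.94 TPM in control libraries. The 4 myeloid markers summed to at most 1.59 TPM in MYC libraries and 2.30 TPM in control libraries, the 4 stromal markers to at most 2.36 TPM in MYC libraries and 3.37 TPM in control libraries, and the 5 epithelial markers to at most 8.69 TPM in MYC libraries and 4.78 TPM in control libraries. The part of these marker levels in the chaperone results was not tested.

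Most cytosolic chaperone genes were higher in MYC cells. With an edgeR quasi-likelihood test over all 17679 genes that passed the filter, called at a Benjamini-Hochberg adjusted p under 0.05, 34 of the 42 genes rose (81.0%), against 28.8% of all genes tested. Another 6 fell (14.3%), against 32.1% of all genes tested. PFDN2 and PFDN5 were not called. The 40 calls in either direction stand against 60.8% of all genes tested. The median log2 fold change of the 42 genes, MYC over control, was 0.60, against -0.02 for all genes tested. Those that fell were HSF1, HSPA1A, HSPA1B, HSPB1, CDC37 and STUB1. In 40 of the 42 genes (95.2%) the MYC and control libraries did not overlap in CPM, against 67.1% of all genes tested. MYC libraries lay above in 34 genes, against 32.1% of all genes tested, and below in 6, against 35.1%. On the log2(TPM + 1) scale, with limma, 31 rose against 21.3% of all genes tested and 5 fell against 29.7%, with 51.0% of all genes called in either direction. In bulk RNA a change in the make-up of the cells and a change in RNA per cell cannot be told apart.

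Most changes were under 2-fold. A call with at least a 2-fold difference was made for 7 of the 42 genes (16.7%), against 18.0% of all genes tested, a share near the background. HSPA8, HSP90AA1, HSPH1 and DNAJA1 were the 4 that rose by that much. HSPA1A, HSPB1 and STUB1 were the 3 that fell by that much. STUB1 lay at the threshold, 2.01-fold lower, and its direction turned with a correction for base composition described next.

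**Figure D1:**
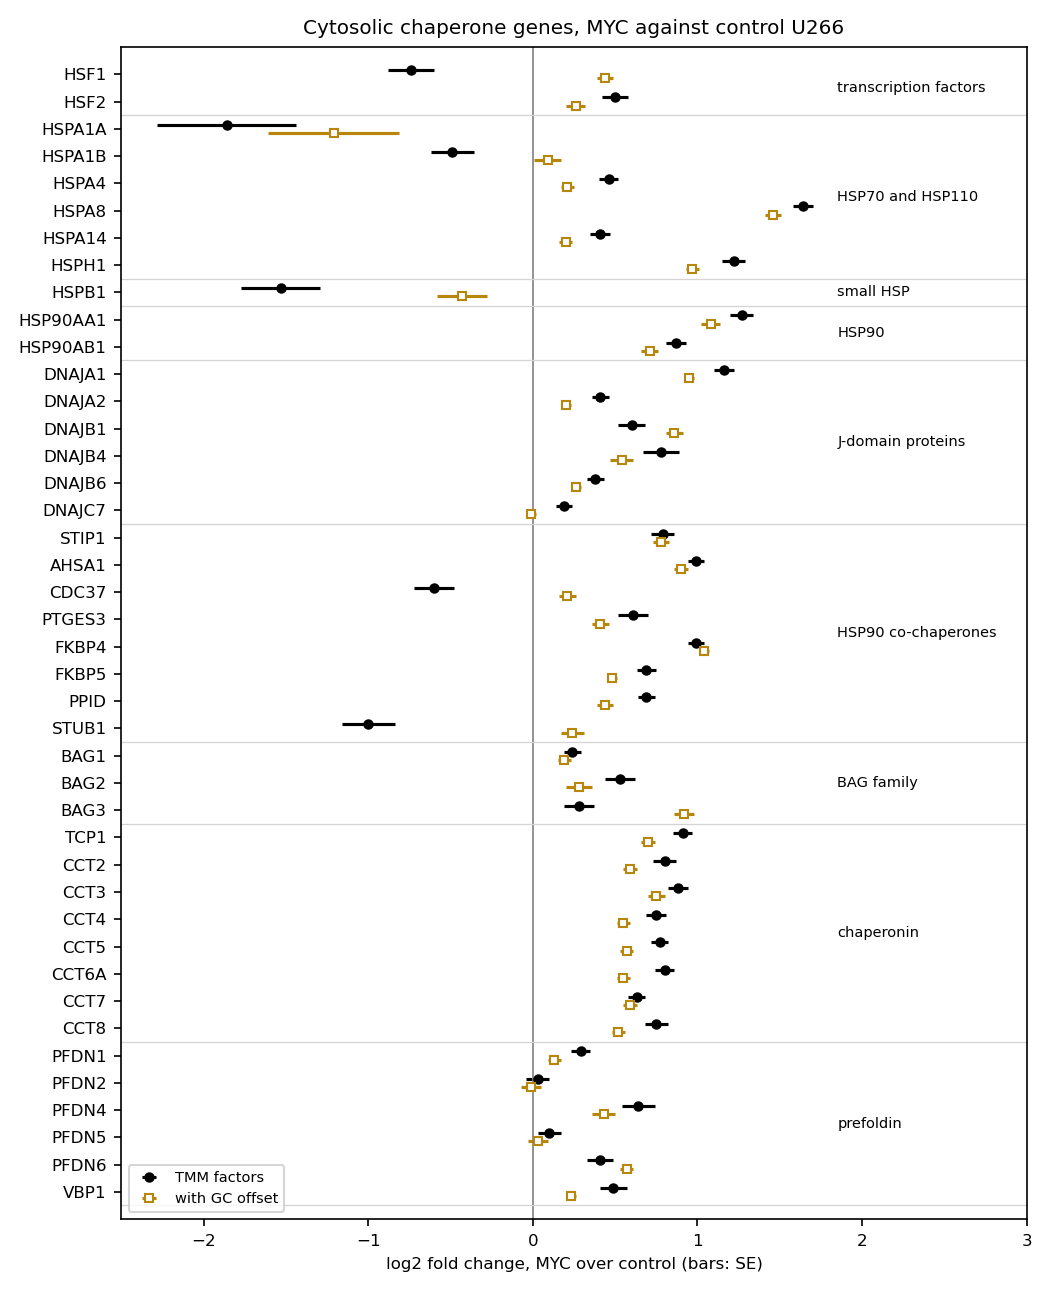
Log2 fold changes, MYC over control, of the 42 genes by family, with points for the uncorrected fit and for the fit corrected for GC content and bars of 1 SE. All 8 chaperonin subunits lie between 0.63 and 0.91 without the correction and between 0.52 and 0.75 with it, while HSF1, CDC37 and STUB1 lie below 0 without it and above 0 with it.

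The difference between the groups followed GC content over the whole transcriptome, and the chaperone genes that fell were GC-rich. Across all genes with a known transcript sequence, the log2 fold change and the GC content of a gene's transcripts had a Spearman correlation of -0.56, given here as a description across genes of the same 6 libraries. In the 2297 genes over 60% GC, the median deviation from the gene's own mean was -0.33, -0.49 and -0.78 on the log2 CPM scale in MYC libraries 1, 2 and 3, against 0.49, 0.64 and 0.54 in control libraries 1, 2 and 3. The 6 chaperone genes that fell had 58.7% to 63.8% GC. The 34 that rose had 36.8% to 59.1% GC. Of the 7 genes with 58% GC or more, 6 fell and BAG3, at 59.1% GC, was the exception. Most genes of like GC content also lay below 0. The upper quartile of the log2 fold change over all genes tested was -0.25 at 58% to 60% GC. It was -0.47 at 60% to 62% and -0.77 at 62% to 64%. MYC library 3, which stood lowest for GC-rich genes, had the lowest CPM of the 6 libraries for all 6 genes that fell. These genes were picked by a lower call in MYC cells and are all GC-rich, so this is not a separate result. HSPA1A had only 2.31 expected counts in MYC library 3.

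The results are therefore given with and without a correction that removed each library's own trend of expression on GC content. With it 36 of the 42 genes rose (85.7%), against 29.7% of all genes tested, and 2 fell (4.76%), against 28.7% of all genes tested, where 58.4% were called in either direction. The median log2 fold change was then 0.46 for the 42 genes and -0.01 for all genes tested. The same 33 genes rose in both fits, and HSPA1A and HSPB1 fell in both. HSF1, CDC37 and STUB1 fell without the correction and rose with it. HSPA1B and DNAJC7 lost their calls, and PFDN2 and PFDN5 were not called in either fit. With the same correction and the TMM factors of the uncorrected counts kept, an alternative chosen after seeing the data, 26 of the 42 genes were called higher, against 19.3% of all genes tested, and 3 lower, against 39.5%. There 58.8% of all genes were called in either direction and the median of all genes lay at -0.14, so that values stand relative to that shift. HSF2, HSPA4, HSPA14, DNAJA2, BAG1, BAG2, PFDN1 and VBP1, called higher in both other fits, were not called there. The GC trend runs with the groups, so a technical and a biological trend cannot be told apart here, and the correction removes both.

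**Figure D2:**
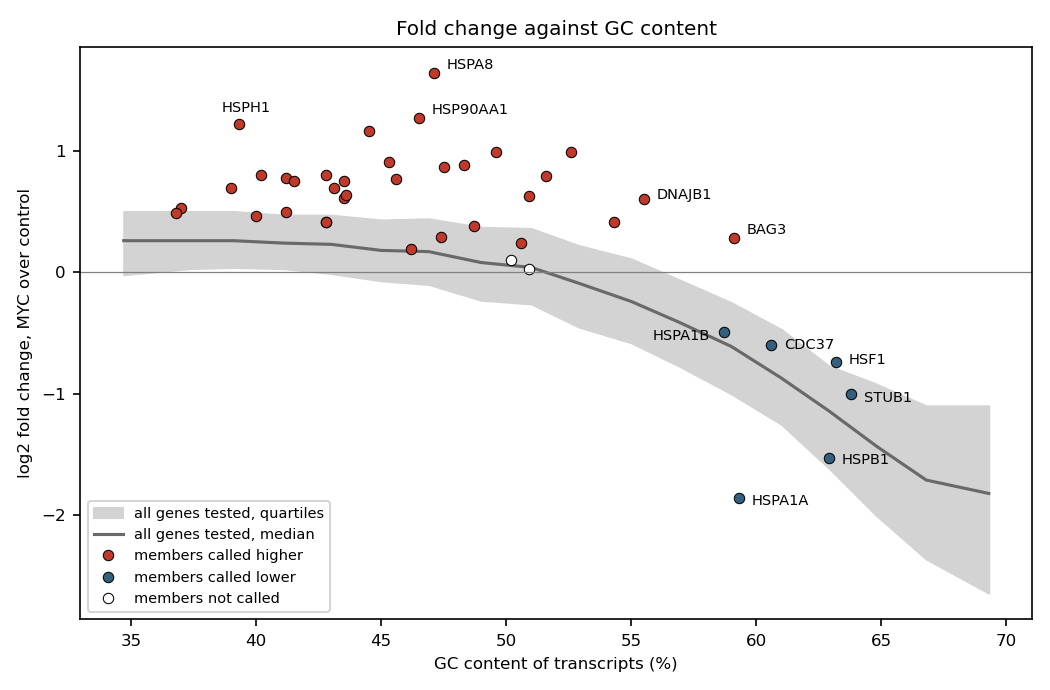
Log2 fold change, MYC over control, against GC content of the transcripts in percent, for the 42 genes as points over the median and the quartiles of all genes tested in bins of GC content. The medians of all genes lie at 0.26 at the lowest GC contents and at -1.82 in the highest bin. Of the 7 chaperone genes with 58% GC or more, 6 lie below 0, as does the upper quartile of all genes tested in every bin from 58% GC.

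Of the heat shock factors, HSF2 rose in 17 of 18 alternatives and the direction of HSF1 depended on the scale. HSF1 encodes the main stress-activated factor of these genes, and HSF2 a related factor that can form mixed trimers with it. HSF2 had 45.7, 41.2 and 42.8 CPM in MYC libraries, against 33.7, 27.8 and 30.2 CPM in control libraries, with no overlap. Its log2 fold change was 0.50 ± 0.08 (SE; edgeR adjusted p = 0.000874), and 0.26 ± 0.06 with the GC correction. With the TMM factors kept in that correction HSF2 was not called, at 0.13 (edgeR adjusted p = 0.179; 1.38e-07 to 0.179 over its alternatives). HSF1 had 27.1, 24.3 and 18.1 CPM in MYC libraries, against 36.5, 42.1 and 36.9 CPM in control libraries. The groups did not overlap in CPM, with a log2 fold change of -0.74 ± 0.14 (edgeR adjusted p = 0.00162; 5.17e-14 to 0.15 over 18 alternative settings, among which the log2 fold change ran from -0.85 to 0.44). Per transcript length HSF1 had 56.6, 48.9 and 48.4 TPM in MYC libraries, against 42.8, 48.6 and 45.4 TPM in control libraries, and there the groups overlapped. After the GC correction HSF1 had 35.7, 35.7 and 33.1 CPM in MYC libraries, against 25.3, 26.8 and 25 CPM in control libraries, a log2 fold change of 0.44 ± 0.05. With effective lengths as offsets the log2 fold change of HSF1 was 0.20, with no call (edgeR adjusted p = 0.15). HSF1 thus had no direction common to these scales. Exons of HSF1 and of DGAT1 overlap on opposite strands, and these libraries do not mark strand. The part of that overlap in the values of HSF1 was not tested.

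The promoter sequences of the genes were searched for the 2 motifs that bear on them. Those that hold a heat shock element in the strict spelling given below are shown. HSPA1B, a gene induced by stress and without a match to that spelling, is shown beside them. RefSeq promoter sequences (build GRCh38.p14) were matched by symbol for 36 of the 42 genes, and the 250 bases before each start were searched on both strands. HSF1, HSPA14, FKBP4, STUB1, CCT6A and PFDN2 were not matched. The heat shock element was spelled as GAA, any 2 bases, TTC, any 2 bases and GAA, or the same read on the other strand as TTC, any 2 bases, GAA, any 2 bases and TTC, and the MYC-binding E-box was spelled CACGTG, which reads the same on both strands. In the sequences below, 5′ to 3′ on the gene's strand, capitals mark the heat shock element. They come from chr11:123062137-123062386 on the minus strand (HSPA8), chr14:102087045-102087294 on the minus strand (HSP90AA1), chr6:44247693-44247942 on the plus strand (HSP90AB1), chr7:157336754-157337003 on the plus strand (DNAJB6) and chr6:31827488-31827737 on the plus strand (HSPA1B).
HSPA8: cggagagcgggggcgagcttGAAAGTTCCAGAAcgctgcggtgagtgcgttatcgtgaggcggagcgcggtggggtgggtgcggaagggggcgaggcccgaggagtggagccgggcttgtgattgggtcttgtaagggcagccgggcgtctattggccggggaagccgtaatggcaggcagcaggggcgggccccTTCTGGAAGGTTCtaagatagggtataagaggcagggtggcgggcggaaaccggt
HSP90AA1: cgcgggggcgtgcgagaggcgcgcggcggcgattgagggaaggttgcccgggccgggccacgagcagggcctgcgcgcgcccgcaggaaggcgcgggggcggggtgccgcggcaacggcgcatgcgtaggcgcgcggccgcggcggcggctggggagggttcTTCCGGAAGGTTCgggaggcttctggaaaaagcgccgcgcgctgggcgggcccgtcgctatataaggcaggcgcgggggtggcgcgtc
HSP90AB1: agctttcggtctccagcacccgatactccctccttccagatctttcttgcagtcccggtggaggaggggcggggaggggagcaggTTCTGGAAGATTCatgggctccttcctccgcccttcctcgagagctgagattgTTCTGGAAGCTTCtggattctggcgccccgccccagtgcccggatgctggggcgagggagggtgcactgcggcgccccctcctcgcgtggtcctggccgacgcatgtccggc
DNAJB6: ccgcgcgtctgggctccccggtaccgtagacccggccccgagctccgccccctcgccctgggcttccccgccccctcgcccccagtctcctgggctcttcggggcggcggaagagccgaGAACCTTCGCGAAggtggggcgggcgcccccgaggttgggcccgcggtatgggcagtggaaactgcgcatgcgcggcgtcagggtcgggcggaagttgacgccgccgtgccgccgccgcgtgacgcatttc
HSPA1B: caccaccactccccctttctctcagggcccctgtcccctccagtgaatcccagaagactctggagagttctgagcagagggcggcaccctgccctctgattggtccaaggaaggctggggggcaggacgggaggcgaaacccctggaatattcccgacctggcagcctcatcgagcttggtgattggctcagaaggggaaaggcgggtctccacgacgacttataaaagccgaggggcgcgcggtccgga

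The element spelled this way was found in 4 of the 36 genes (11.1%), against 0.557% of the 27305 genes in the promoter table. Counted in bases from the start, its first base lay at -230 and -55 in HSPA8, at -165 and -112 from one of the starts of HSP90AB1, at -88 from one of the starts of HSP90AA1 and at -131 in DNAJB6. All 4 of these genes rose. Of the 32 searched genes without a match, 27 rose, 4 fell and 1 was not called. Of all genes tested 28.8% rose and 32.1% fell. Most of the searched genes thus rose with or without a match, and a link between the element and the rise was not tested. The E-box was found in HSF2 and FKBP5, 2 of the 36 genes (5.56%), against 7.73% of the genes in the table. A match is a description of the letters, and no match says only that these letters are not in this window. Near matches were not counted. The HSPA1B sequence shown holds gaatattcccgac, which differs from the heat shock element as spelled only in its last base. HSPA1B can thus not be taken as a gene without such an element.

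The constitutive HSP70 gene had the largest rise of the 42. HSPA8, which encodes HSC70, the HSP70 that most cells make without stress (ENSG00000109971.9), had 2305, 2373 and 2188 CPM in MYC libraries, against 759, 734 and 715 CPM in control libraries. Every MYC library was far above every control library. HSPA8 was 3.11-fold higher, a log2 fold change of 1.64 ± 0.06 (edgeR adjusted p = 6.47e-07), and 1.46 ± 0.05 with the GC correction. HSPH1, which encodes the HSP110 that exchanges nucleotide on HSP70, had 140, 155 and 157 CPM in MYC libraries, against 69.8, 61.2 and 63.3 CPM in control libraries. Its groups did not overlap, with a log2 fold change of 1.22 ± 0.07 (edgeR adjusted p = 4.81e-06), and 0.97 ± 0.04 with the correction. HSPA4, a second HSP110 protein, rose less, with 329 ± 1.74 CPM in MYC cells and 240 ± 16.8 CPM in control cells (SD, n = 3 each) and a log2 fold change of 0.46 ± 0.06, or 0.21 ± 0.04 with the correction. HSPA14, an HSP70 found on ribosomes, rose with a log2 fold change of 0.41 ± 0.06, or 0.20 ± 0.04 with the GC correction. Of the transcript positions of HSPA8, 8.23% of 50-base words also occur in other genes, mainly its pseudogenes, so some of its reads may have been assigned to those.

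The stress-inducible pair HSPA1A and HSPA1B went the other way from HSPA8 without the GC correction. The pair encodes one protein, the inducible HSP70, and 71.3% of the 50-base words in HSPA1A transcripts and 73.5% of those in HSPA1B transcripts occur in other genes, mainly in the partner. The split of reads between them is therefore uncertain. HSPA1A had expected counts of only 4.48, 17.58 and 2.31 in MYC libraries, against 21.91, 36.7 and 34.07 in control libraries. HSPA1B had 15.5, 14.4 and 10.4 CPM in MYC libraries, against 19.6, 19.0 and 17.9 CPM in control libraries. The groups did not overlap for either gene. Summed, the pair fell with a log2 fold change of -0.51 ± 0.14 (edgeR adjusted p = 0.0108; 2.72e-06 to 0.793 over its alternatives), and its value was 0.10 ± 0.08 with the GC correction, with no call. HSPA1A alone kept a lower call with the correction, at a log2 fold change of -1.21 ± 0.40 against -1.86 ± 0.42 without it, on these few counts. The pair summed to 8.27, 7.85 and 6.04 TPM in MYC libraries, against 11.6, 10.6 and 10.4 TPM in control libraries, while HSPA8 alone had 1642, 1757 and 1631 TPM in MYC libraries, against 642, 608 and 612 TPM in control libraries. In TPM, HSPA8 stood far above the pair in all 6 libraries.

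HSPB1, the small heat shock protein HSP27 that holds unfolded proteins without using ATP, fell in both fits. It had 14.4, 9.30 and 6.25 CPM in MYC libraries, against 28.1, 31.0 and 25.4 CPM in control libraries, with no overlap. Its log2 fold change was -1.53 ± 0.24 (edgeR adjusted p = 0.000723). With the GC correction HSPB1 had 18.7, 13.5 and 11.2 CPM in MYC libraries, against 19.1 ± 1.46 CPM in control libraries (SD, n = 3), where the lowest had 17.4 CPM, and the groups then overlapped. The log2 fold change was then -0.43 ± 0.15 (edgeR adjusted p = 0.0318; 3.16e-47 to 0.0318 over 18 alternatives), so that 2.89-fold lower became 1.34-fold lower.

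**Figure D3:**
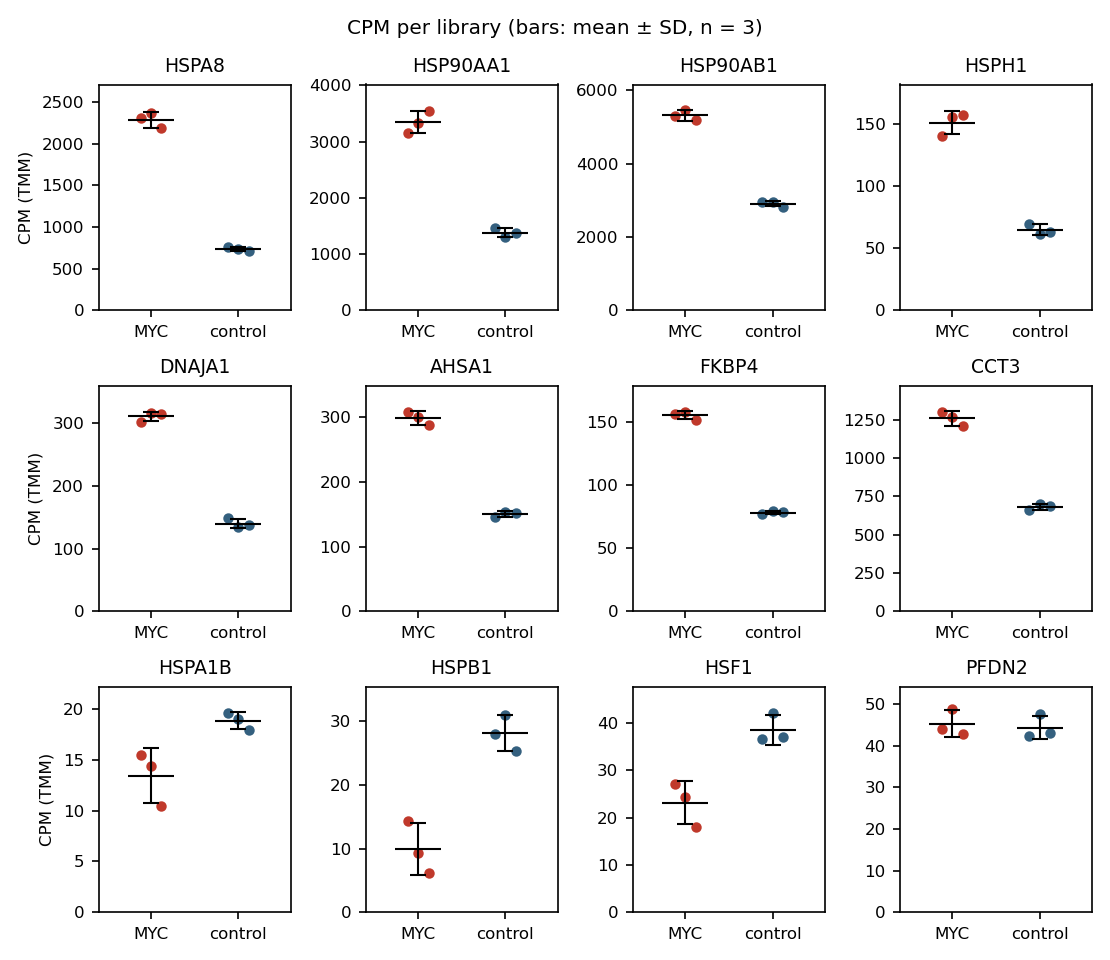
CPM of 12 of the genes in each library, on a linear axis from 0 for each gene, with the 3 MYC libraries to the left of the 3 control libraries and bars of the mean and SD. HSPA8 lies at 2188 CPM or more in MYC libraries and at 759 CPM or less in control libraries, HSPB1 and HSF1 lie lower in MYC libraries on this scale (HSF1 turned higher with the GC correction), and the groups overlap for PFDN2.

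Both HSP90 genes rose, with a larger fold change for the inducible one. The share that rose over all genes tested was 28.8%, or 29.7% with the GC correction. HSP90AA1, which encodes the stress-inducible HSP90α (ENSG00000080824.14), had 3155, 3341 and 3540 CPM in MYC libraries, against 1472, 1312 and 1372 CPM in control libraries. It was 2.41-fold higher, with a log2 fold change of 1.27 ± 0.07 (edgeR adjusted p = 4.95e-06). HSP90AB1, which encodes the constitutive HSP90β (ENSG00000096384.15), had 5309, 5466 and 5178 CPM in MYC libraries, against 2951, 2944 and 2829 CPM in control libraries. It was 1.83-fold higher, with a log2 fold change of 0.87 ± 0.06 (edgeR adjusted p = 1.38e-05). The libraries of the groups did not overlap for either gene, and with the GC correction the log2 fold changes were 1.08 ± 0.06 for HSP90AA1 and 0.71 ± 0.05 for HSP90AB1. In TPM, which allows levels of the 2 genes to be compared, HSP90AA1 made up 30.9%, 31.5% and 34.0% of HSP90 transcripts in MYC libraries, against 27.4%, 25.2% and 26.8% in control libraries. The share was 5.72 points higher and the groups did not overlap, with an exact two-sided permutation p of 0.1, the smallest that 3 against 3 libraries can give. Summed, HSP90 had 3968, 4221 and 4448 TPM in MYC libraries, against 2305, 2088 and 2149 TPM in control libraries. Words of 50 bases shared with other genes, mainly pseudogenes, were 11.3% for HSP90AA1 and 16.6% for HSP90AB1.

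The J-domain proteins, which deliver clients to HSP70 and start its ATP cycle, rose in all 6 genes, in 5 with the GC correction. Of all genes tested 28.8% rose, or 29.7% with the correction. DNAJA1, a farnesylated J-domain protein, had 302, 315 and 314 CPM in MYC libraries, against 148, 134 and 137 CPM in control libraries. It was 2.23-fold higher and its groups did not overlap, with a log2 fold change of 1.16 ± 0.06 (edgeR adjusted p = 2.47e-06), and 0.95 ± 0.03 with the GC correction. DNAJB1, the main stress-inducible J-domain protein, had 141, 135 and 113 CPM in MYC libraries, against 86.5, 87.1 and 83.9 CPM in control libraries, with no overlap. DNAJB1 had a log2 fold change of 0.60 ± 0.08, and 0.86 ± 0.05 with the GC correction. DNAJB4, close to DNAJB1 in sequence, was the lowest of the family per transcript length at 5.38 ± 0.711 TPM in MYC cells and 3.45 ± 0.369 TPM in control cells (SD, n = 3 each), with a log2 fold change of 0.78 ± 0.11, or 0.54 ± 0.07 with the GC correction. DNAJA2, a partner of HSC70, and DNAJB6, which holds back aggregation of polyglutamine proteins, rose with log2 fold changes of 0.41 ± 0.05 and 0.38 ± 0.05, or 0.20 ± 0.03 and 0.26 ± 0.03 with the correction. DNAJC7, which binds both HSP70 and HSP90, was higher by a small amount in the uncorrected fit, at 0.19 ± 0.05 (edgeR adjusted p = 0.0102; 0.000864 to 0.871 over 18 alternatives). Its value with the GC correction was -0.01 ± 0.03, and with the TMM factors kept it was called lower, at -0.15 (edgeR adjusted p = 0.0139). Its call was lost without control library 3 (adjusted p = 0.0586), on log2(TPM + 1) and log2(TPM + 0.1) (0.0786 and 0.0813) and with no expression filter (0.134).

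Of the 8 HSP90 co-chaperones 6 rose and 2 fell, against 28.8% and 32.1% of all genes tested. With the GC correction all 8 rose, against 29.7%, of which CDC37 and STUB1 were not called when the TMM factors were kept. AHSA1, which speeds up the ATPase of HSP90, had 308, 299 and 287 CPM in MYC libraries, against 146, 154 and 151 CPM in control libraries. FKBP4, an immunophilin of steroid receptor complexes, had 157, 158 and 152 CPM in MYC libraries, against 77.0, 79.3 and 78.6 CPM in control libraries. STIP1, also called HOP, which links HSP70 to HSP90, had 589, 549 and 544 CPM in MYC libraries, against 300, 337 and 334 CPM in control libraries. None of these groups overlapped, and the log2 fold changes were 0.99 ± 0.05 for AHSA1, 0.99 ± 0.05 for FKBP4 and 0.79 ± 0.07 for STIP1, or 0.90, 1.04 and 0.78 with the GC correction. Their edgeR adjusted p-values, without the correction, were 3.70e-06, 2.47e-06 and 2.95e-05. FKBP5, a second immunophilin, and PPID, the cyclophilin of the complex, rose with log2 fold changes of 0.69 ± 0.06 and 0.69 ± 0.05, or 0.48 and 0.44 with the correction. PTGES3, which encodes p23, the co-chaperone that holds HSP90 in its closed state, rose with 0.61 ± 0.09, or 0.41 with the correction.

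CDC37 and STUB1 were the co-chaperones whose direction turned. CDC37 brings kinases to HSP90, and it had 227, 213 and 165 CPM in MYC libraries, against 277, 330 and 307 CPM in control libraries, a log2 fold change of -0.60 ± 0.12 with no overlap. With the GC correction CDC37 had 269, 279 and 255 CPM in MYC libraries, against 219, 240 and 234 CPM in control libraries, a log2 fold change of 0.21 ± 0.05, also with no overlap. STUB1 encodes CHIP, the ubiquitin ligase that sends clients of HSP70 and HSP90 to the proteasome. It had 65.9, 50.2 and 38.3 CPM in MYC libraries, against 100, 106 and 102 CPM in control libraries, a log2 fold change of -1.0 ± 0.16. With the correction STUB1 had 88.6, 75.6 and 72.5 CPM in MYC libraries, against 67.4, 65.3 and 67.3 CPM in control libraries, a log2 fold change of 0.24 ± 0.07. With the TMM factors kept in the correction, CDC37 stood at 0.08 (edgeR adjusted p = 0.303; 8.24e-11 to 0.303 over its alternatives) and STUB1 at 0.10 (0.294; 6.19e-29 to 0.294), with no call for either. Exons of STUB1 and of JMJD8 overlap on opposite strands, as exons of 16 of the 42 genes do with some other gene, and these libraries, which do not mark strand, cannot tell such reads apart.

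The BAG family, which releases nucleotide and client from HSP70, rose in all 3 genes by small amounts in CPM, against 28.8% of all genes tested. On log2(TPM + 1) only BAG2 was called, as higher, against 21.3% of all genes tested. BAG2 had 24.1, 24.9 and 22.7 CPM in MYC libraries, against 18.9, 15.4 and 15.5 CPM in control libraries, with no overlap and a log2 fold change of 0.53 ± 0.09, or 0.28 ± 0.08 with the GC correction. BAG1 rose with 0.24 ± 0.05, and in TPM its groups overlapped, at 74.4 ± 2.12 TPM in MYC cells and 71.0 ± 3.42 TPM in control cells (SD, n = 3 each). The call of BAG1 was lost on log2(TPM + 1) and log2(TPM + 0.1) (adjusted p = 0.358 and 0.369). It was also lost with effective lengths as offsets (0.166) and with the TMM factors kept in the GC correction (0.38). BAG3, the stress-induced member that also serves autophagy, had 22.2, 23.0 and 19.1 CPM in MYC libraries, against 17, 19.1 and 17 CPM in control libraries. The highest control library and the lowest MYC library lay side by side. The log2 fold change of BAG3 was 0.28 ± 0.09 (edgeR adjusted p = 0.026; 3.04e-06 to 0.112 over 18 alternatives), and 0.92 ± 0.06 with the GC correction. Its call was lost without control library 1, control library 3, MYC library 1 or MYC library 2, at adjusted p-values of 0.092, 0.111, 0.055 and 0.112, and on log2(TPM + 1) and log2(TPM + 0.1), at 0.0625 and 0.0564.

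The chaperonin subunits rose together. TRiC is built of 8 different subunits in each ring, encoded by TCP1, CCT2, CCT3, CCT4, CCT5, CCT6A, CCT7 and CCT8, and it folds actin and tubulin among other clients. All 8 genes rose in both fits, with log2 fold changes from 0.63 to 0.91 (median 0.79), and from 0.52 to 0.75 (median 0.58) with the GC correction. In none of the 8 did the MYC and control libraries overlap, each with MYC above, against 32.1% of all genes tested. Calls of higher were made for 28.8% of all genes tested, or 29.7% with the GC correction. Without the correction TCP1 had the highest fold change, within its error of CCT3 at 0.88 ± 0.06, with 565, 572 and 591 CPM in MYC libraries, against 331, 296 and 295 CPM in control libraries, a log2 fold change of 0.91 ± 0.06 (edgeR adjusted p = 1.27e-05). CCT7 had the lowest without the correction, with 733, 715 and 710 CPM in MYC libraries, against 469, 465 and 456 CPM in control libraries, a log2 fold change of 0.63 ± 0.05 (edgeR adjusted p = 2.63e-05). With the correction CCT3 was the highest, at 0.75 ± 0.05, and CCT8 the lowest, at 0.52 ± 0.04. All 8 kept their calls in all 18 alternatives.

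Summed over the 8 subunits, the chaperonin had 3725, 3755 and 4154 TPM in MYC libraries, against 2436, 2199 and 2320 TPM in control libraries. The sum was 1.67-fold higher with no overlap, at an exact two-sided permutation p of 0.1, the smallest possible here. CCT3 was the most abundant subunit at 895 ± 11.9 TPM in MYC cells and 499 ± 9.35 TPM in control cells (SD, n = 3 each). CCT7 followed at 590 ± 41.2 TPM in MYC cells and 396 ± 14.3 TPM in control cells, then CCT5 at 556 ± 24.8 TPM in MYC cells and 341 ± 10.3 TPM in control cells. CCT8 and CCT2 came next, at 428 ± 30.1 and 384 ± 53.4 TPM in MYC cells and 262 ± 26.9 and 232 ± 15.6 TPM in control cells. TCP1, CCT4 and CCT6A lay lowest, within their spread of each other, at 343 ± 31.4, 342 ± 32.2 and 339 ± 21.7 TPM in MYC cells, and at 185 ± 15.9, 204 ± 19.4 and 198 ± 16.7 TPM in control cells. In MYC libraries the values of CCT7 and CCT5 overlapped, as did those of CCT8 and CCT2 and those of CCT2 and TCP1. Within every one of the 6 libraries, though, CCT7 lay above CCT5, CCT8 above CCT2 and CCT2 above TCP1, and in control libraries CCT7 and CCT5 did not overlap, nor did CCT2 and TCP1.

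The shares of 2 subunits in the sum did not overlap between the groups. The highest subunit stood 2.69 ± 0.179 times above the lowest in MYC libraries and 2.71 ± 0.221 times in control libraries (SD, n = 3 each; exact two-sided permutation p = 0.9). Of the summed TPM, CCT7 made up 15.2% ± 0.161 in MYC cells and 17.1% ± 0.257 in control cells (SD, n = 3 each; exact permutation p = 0.1, the smallest possible). TCP1 made up 8.84% ± 0.332 in MYC cells and 7.98% ± 0.312 in control cells, with the same exact p. These were 2 of 8 shares compared, and with 3 against 3 libraries no share could pass 0.05. The other 6 shares had exact p-values from 0.3 to 0.9. The shares carry no GC correction, and CCT7 had the highest GC content of the 8 subunits, at 50.9%. With the GC correction the log2 fold change was 0.59 ± 0.04 for CCT7 and 0.70 ± 0.04 for TCP1, against a median of 0.58 for the 8.

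**Figure D4:**
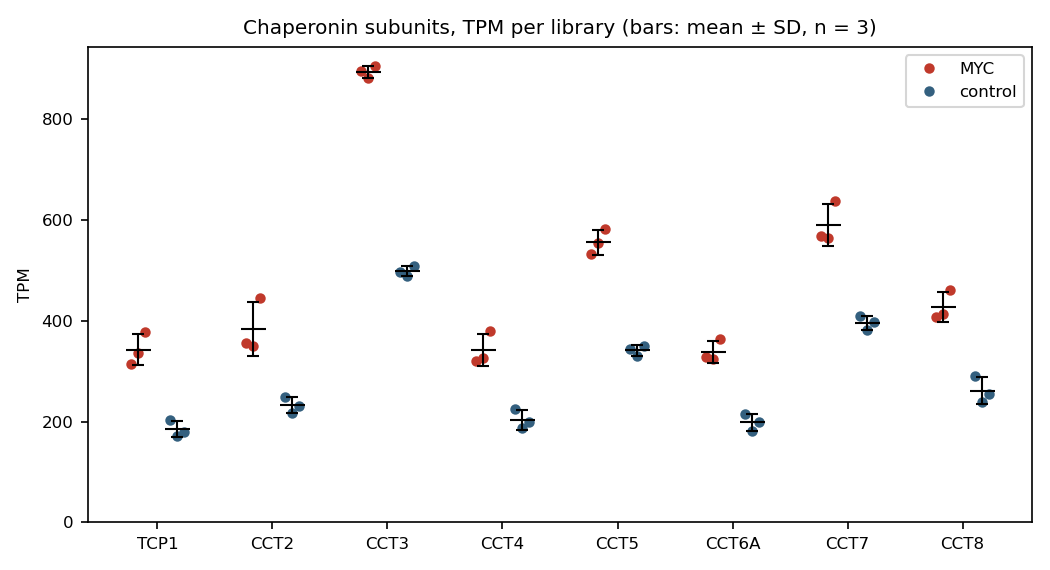
TPM of the 8 chaperonin subunits in each library, as deposited, with the 3 MYC libraries to the left of the 3 control libraries and bars of the mean and SD. CCT3 is highest at a mean of 895 TPM in MYC cells and 499 TPM in control cells, and no subunit has a MYC library at or below a control library.

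Prefoldin genes rose in part, with a median log2 fold change of 0.35, or 0.18 with the GC correction, against 0.79 and 0.58 for the chaperonin genes. The 6 prefoldin subunits pass newly made actin and tubulin to TRiC, and 4 of them rose in both fits: PFDN1, PFDN4, PFDN6 and VBP1. Of all genes tested 28.8% rose without the correction and 29.7% with it. With the TMM factors kept in the correction PFDN1, at -0.01, and VBP1, at 0.10, were not called. PFDN4 had 15.2, 16.5 and 16.5 CPM in MYC libraries, against 11.8, 9.83 and 9.58 CPM in control libraries, a log2 fold change of 0.64 ± 0.10 (edgeR adjusted p = 0.000537), and 0.43 ± 0.07 with the GC correction. VBP1 had 157, 157 and 176 CPM in MYC libraries, against 129, 106 and 115 CPM in control libraries, a log2 fold change of 0.49 ± 0.08 (edgeR adjusted p = 0.000991), and 0.23 ± 0.03 with the correction. PFDN6 rose with 0.41 ± 0.08, or 0.57 ± 0.04 with the correction, and PFDN1 with 0.29 ± 0.06, or 0.13 ± 0.04 with it. The groups did not overlap for any of these 4, each with MYC above, against 32.1% of all genes tested. PFDN2 had 44.1, 48.9 and 42.8 CPM in MYC libraries, against 42.4, 47.5 and 43.1 CPM in control libraries, and the groups overlapped. PFDN5 overlapped too, with 120, 127 and 111 CPM in MYC libraries and 108, 121 and 106 CPM in control libraries. Their log2 fold changes were 0.03 ± 0.07 for PFDN2, which was -0.01 ± 0.06 with the GC correction, and 0.10 ± 0.07 for PFDN5. Summed, prefoldin had 1149, 1172 and 1161 TPM in MYC libraries, against 976, 949 and 967 TPM in control libraries, 1.20-fold higher with an exact permutation p of 0.1. The difference between the 2 complexes in fold change was not tested.

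Together, transcripts of the 42 genes summed to 13129, 13575 and 14246 TPM in MYC libraries, against 8444, 7844 and 8095 TPM in control libraries. The sum was 1.68-fold higher, with no overlap and an exact two-sided permutation p of 0.1. HSP90AB1, HSPA8, HSP90AA1 and CCT3 were the most abundant in MYC cells, at 2855 ± 101, 1677 ± 69.7, 1357 ± 145 and 895 ± 11.9 TPM. In control cells the same genes had 1603 ± 61.8, 621 ± 18.8, 577 ± 52.7 and 499 ± 9.35 TPM (SD, n = 3 each).

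Other genes of the same pathways were taken from 5 lists of 88 genes found in the files, of which 83 were tested. Of these 36 rose and 23 fell, against 28.8% and 32.1% of all genes tested. The median log2 fold change was 0.13, against -0.02 for all genes tested. With the GC correction 44 rose and 16 fell, against 29.7% and 28.7%, and the median was 0.19, against -0.01. Among 22 other HSP70, J-domain and small heat shock genes, 12 rose and 6 fell, against 28.8% and 32.1% of all genes tested. With the correction 11 rose and 5 fell, against 29.7% and 28.7%. HSPA4L, an HSP110 gene, was 2.75-fold higher, at 110 ± 6.03 CPM in MYC cells and 39.9 ± 3.83 CPM in control cells (SD, n = 3 each). HSPA6, a strictly stress-inducible HSP70, rose with 1.92 ± 0.27 at a low level, 0.384 ± 0.0419 CPM in MYC cells and 0.109 ± 0.0225 CPM in control cells, or 2.49 with the GC correction. HSPA12B also rose at a low level, with 1.17 ± 0.42, or 2.53 with the correction. DNAJB2, a J-domain protein that carries clients to the proteasome, fell with -1.70 ± 0.07, or -1.04 with the GC correction. HSF4, another heat shock factor, fell with -1.33 ± 0.14 and was not called with the correction, at -0.13.

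Among 24 other co-chaperones of HSP90 and HSP70, 10 rose and 7 fell, against 28.8% and 32.1% of all genes tested. With the GC correction 13 rose and 4 fell, against 29.7% and 28.7%. FKBP8, a membrane-bound immunophilin, had 29 ± 9.07 CPM in MYC cells and 119 ± 7.21 CPM in control cells, a log2 fold change of -2.05 ± 0.20, or -0.74 with the GC correction. SGTA, which sorts tail-anchored proteins, fell with -1.31 ± 0.14, or -0.74 with the correction. HSPBP1, a nucleotide exchange factor of HSP70, fell with -1.17 ± 0.16 and rose with 0.31 when corrected. Among 13 chaperonin partners, prefoldin-like genes and genes of the R2TP assembly complex, 5 rose and 4 fell, close to the 28.8% and 32.1% of all genes tested. With the correction 5 rose and 2 fell, against 29.7% and 28.7%. POLR2E, a subunit of RNA polymerase II that sits with the prefoldin-like complex, fell with -1.48 ± 0.17, or -0.30 with the correction.

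The folding clients and cofactors of tubulin were mixed. Of the 6 tubulin cofactors tested 1 rose and 3 fell, against 28.8% and 32.1% of all genes tested. With the GC correction 3 rose and 3 fell, against 29.7% and 28.7%. TBCA, which captures β-tubulin released from TRiC, rose with a log2 fold change of 0.59 ± 0.06, or 0.34 with the correction. TBCD, which holds β-tubulin later in the path, fell with -0.58 ± 0.09, or -0.21 with the correction. ARL2, the GTPase partner of TBCD, fell with -0.53 ± 0.10 but rose with 0.42 when corrected for GC content. Of the 18 tubulin and actin genes 8 rose and 3 fell, against 28.8% and 32.1% of all genes tested, or 12 and 2 with the GC correction, against 29.7% and 28.7%. TUBB4A had 2.90 ± 0.390 CPM in MYC cells and 0.363 ± 0.109 CPM in control cells, a log2 fold change of 3.06 ± 0.21, or 4.28 with the GC correction. Tubulin genes are close paralogs, so the split of reads among them is uncertain. TUBB6 and TUBB3, 2 other β-tubulin genes, fell with -2.17 ± 0.25 and -1.76 ± 0.16, or -1.57 and -0.78 with the correction. ACTB, the cytoplasmic β-actin that TRiC folds, was not called at 0.13 ± 0.13 and rose with 0.94 when corrected.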

How the data were processed

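RNA was measured in 6 poly-A enriched libraries of U266 cells, 3 MYC and 3 control, grouped by their labels. The build GRCh37 and the tools cutadapt and TopHat2 are named per the submitters' processing notes. The sources used here give neither tool versions nor an annotation. The deposited tables are, per the file headers, RSEM output with an expected count, which shares reads between similar genes, a TPM and an effective length in bases per gene and library. The library kit does not mark strand. Summed expected counts spanned a 5.85-fold range, so the shallowest library limits precision for low genes, and errors are spreads between libraries.

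After rounding of the expected counts, the quasi-likelihood F test of edgeR 4.0.16 (R 4.3.3) was run on group alone, with TMM factors and the default filter on low expression. P-values were adjusted after Benjamini and Hochberg over 17679 genes. Every adjusted p-value called edgeR comes from this fit or, where stated, from the same test with the GC correction or another alternative. SE values derive from the F statistic, and CPM values carry TMM factors. For the GC correction, a loess trend (span 0.4) of log2 CPM against GC content of the transcripts was fitted per library and removed as an offset and TMM factors were recomputed. GC content came from GENCODE 29 transcripts and was matched for 97.3% of the genes tested and for all 42 members. Words of 50 bases shared between genes and overlapping exons came from the same release. Sums and shares of deposited TPM were compared by an exact permutation test over libraries. The edgeR fit with TMM factors was tested on counts simulated without a GC trend, and that test did not cover the GC correction.

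Members, pathway lists, markers and tests were chosen with earlier results of these data known. Of the 5 pathway lists, 3 of 91 symbols were not matched. Pathway genes were named where called with at least a 2-fold change, otherwise up to 3 called genes per list by smallest adjusted p, plus ACTB; 1 gene that met this rule is not reported here. Alternatives were other size factors, the effective lengths as offsets, DESeq2 1.42.0, limma 3.58.1 with voom or on log2(TPM + 1) and log2(TPM + 0.1), other filters, a replicate block and each library left out. A GC correction with the TMM factors kept was chosen after seeing the data.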

Additional observations from a re-analysis of the deposited data

How the results depend on the processing

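The 34 genes called higher became 26 to 36 over 18 alternatives, and 24 of them kept the call in every alternative, as HSPB1 and HSPA1A did among the 6 called lower (a mean CPM of at least 5 gave no value for HSPA1A). With each library left out the counts were 32 to 34 higher and 6 lower, and over all genes 4184 to 5076 higher and 4925 to 5809 lower. With the GC correction 2 genes were called lower, likewise with the replicate block added, and 26 were called higher and 3 lower with TMM factors kept, where all genes split 3409 higher to 6990 lower. A mean CPM of at least 5 left 3694 of all genes called lower, with fewer genes tested.

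Log2 fold changes that reversed did so mainly under the GC correction, the cause of which was not tested: HSF1 0.44, HSPA1B 0.09, DNAJC7 -0.01, CDC37 0.21, STUB1 0.24, PFDN2 -0.01 and the HSPA1A and HSPA1B sum 0.10 (adjusted p = 0.317), with the same values when the replicate block was added (sum: adjusted p = 0.22). With TMM factors kept they were HSF1 0.30, DNAJC7 -0.15 (called lower), CDC37 0.08 and STUB1 0.10 (not called), PFDN1 -0.01, PFDN2 -0.15 and PFDN5 -0.11, and the sum was -0.03 with no call. HSF1 was 0.20 with effective lengths, 0.16 on log2(TPM + 1) and 0.17 on log2(TPM + 0.1). With a library left out PFDN2 ran from -0.03 to 0.08 and the sum from -0.35 to -0.61.

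Replicate numbers showed no clear pairing of the samples: same-numbered deviations correlated at -0.05, 0.08 and 0.11. MYC library 1 correlated best with control library 2, at 0.1. MYC libraries 2 and 3 each correlated best with the control library of the same number. The replicate block gave 34 genes higher and 6 lower, and 4649 and 5380 over all genes. Few counts limit HSPA1A.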
